A study of Homo sapiens with 3 samples.

Results

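Huh-7 cells, a line derived from a liver cancer, were set against ES-2 cells, from an ovarian cancer, and C643 cells, from a thyroid cancer, by the small RNA sequenced from the parental cells of each line. A mature miRNA was taken as higher in Huh-7 when its share of all miRNA reads there was at least 4 times its share in both other lines, and as lower when it was at most 0.25 of both, provided that it reached 100 deposited units in 1 library. Of 2588 mature miRNAs, 212 reached 100 units, and 90 of them met the rule: 45 were higher in Huh-7 and 45 were lower. The measured shares themselves chose these miRNAs, so their folds describe the 3 libraries, and no test of a difference between the lines was possible.

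Each line was represented by 1 library, made from 50 ng of total RNA of unmodified, untreated cells harvested 48 h after seeding in medium with 10% serum. The study, which examined miR-21-5p as a target in cancer, measured these miRNAs before any deletion. The libraries held 2173587 miRNA reads in Huh-7 against 1663181 in ES-2 and 8183100 in C643. There is no replicate of any line, and intervals given below cover counting error only. In bulk RNA, fewer cells that express a miRNA and less of it per cell cannot be told apart.

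The same rule singled out fewer miRNAs when another line was taken as the one apart. Of the 212 tested, 21.2% were higher in Huh-7 and 21.2% lower, against 4.72% higher and 8.49% lower in C643 (10 and 18 miRNAs) and 3.3% higher and 12.7% lower in ES-2 (7 and 27 miRNAs). Of the lower miRNAs, 42 in Huh-7, 12 in C643 and 20 in ES-2 had more than 3 reads in both other lines. Against ES-2 alone, 29.7% of the 212 were at least 4-fold higher in Huh-7 and 21.7% at most 0.25 of it, and against C643 alone 30.7% and 25%. Both comparisons use the same Huh-7 library. By share, the median miRNA detected in both lines was itself higher in Huh-7, by 1.10 on the log2 scale against ES-2 (186 miRNAs) and by 0.70 against C643 (193 miRNAs). After scaling each library by the median ratio, or by the units as deposited, 34 of the 45 higher miRNAs kept a 4-fold difference, and all 45 lower ones did. Both scalings lower Huh-7 relative to the other lines. The lower miRNAs therefore could not lose their difference, and their full number is no sign of stability. The 11 that fell under 4-fold were miR-182-5p, miR-191-5p, miR-26b-5p, miR-99a-5p, miR-455-3p, miR-1180-3p, miR-421, miR-450a-5p, miR-450b-5p, miR-125b-2-3p and miR-200c-3p. The split of calls was 34 higher to 49 lower under either of these scalings.

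MicroRNAs are short RNAs cut from hairpins, and the arms of a hairpin are named 5p and 3p. Loaded into an Argonaute protein, a miRNA finds its target mRNAs mainly by pairing of its seed, bases 2 to 8, and lowers their output, so miRNAs with the same seed share many predicted targets. Some miRNAs mark a tissue of origin. In liver, miR-122 is by far the best known: hepatocytes make it in large amounts, and hepatitis C virus depends on it. The let-7 family, in contrast, is low in embryonic cells and rises with differentiation, and its precursors are blocked by LIN28 proteins.

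The mature sequences of the higher miRNAs on which the account turns are shown first, 5′ to 3′, with the seed in capitals (RefSeq, GRCh38.p14, in which 83 of the 90 miRNAs were matched). They include 7 liver-linked arms, and sets that share a seed: miR-192-5p with miR-215-5p, miR-200b-3p with miR-200c-3p and miR-429, and miR-1269a with miR-1269b.
miR-122-5p: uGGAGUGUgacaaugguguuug
miR-122-3p: aACGCCAUuaucacacuaaaua
miR-885-5p: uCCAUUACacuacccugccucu
miR-148a-3p: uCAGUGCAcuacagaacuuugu
miR-194-5p: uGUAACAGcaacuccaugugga
miR-192-5p: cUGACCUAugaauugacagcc
miR-215-5p: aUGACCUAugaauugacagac
miR-200b-3p: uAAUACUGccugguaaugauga
miR-200c-3p: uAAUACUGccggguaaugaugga
miR-429: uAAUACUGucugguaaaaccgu
miR-200a-3p: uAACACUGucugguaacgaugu
miR-1269a: cUGGACUGagccgugcuacugg
miR-1269b: cUGGACUGagccaugcuacugg
miR-196a-5p: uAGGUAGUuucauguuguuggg
miR-99a-5p: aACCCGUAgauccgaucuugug

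The lower miRNAs shown are the let-7 family, miR-98-5p, which carries its seed, the pair miR-221-3p and miR-222-3p, miR-100-5p, which carries the seed of the higher miR-99a-5p, and others that were abundant in ES-2 and C643.
let-7a-5p: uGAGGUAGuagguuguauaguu
let-7b-5p: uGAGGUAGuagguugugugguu
let-7d-5p: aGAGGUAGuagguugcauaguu
let-7f-5p: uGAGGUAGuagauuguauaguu
let-7g-5p: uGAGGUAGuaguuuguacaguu
let-7i-5p: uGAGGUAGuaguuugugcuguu
miR-98-5p: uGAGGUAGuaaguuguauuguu
miR-221-3p: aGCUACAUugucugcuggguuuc
miR-222-3p: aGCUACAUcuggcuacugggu
miR-100-5p: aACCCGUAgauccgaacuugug
miR-125b-5p: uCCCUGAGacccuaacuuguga
miR-30a-5p: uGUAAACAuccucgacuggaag
miR-29a-3p: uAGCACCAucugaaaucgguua
miR-10a-5p: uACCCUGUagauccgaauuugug
miR-155-5p: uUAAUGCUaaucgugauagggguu
miR-199a-3p: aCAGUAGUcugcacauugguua

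Together the 45 higher miRNAs made up 26.4% of the reads in Huh-7 (Wilson 95% interval 26.35 to 26.47%) against 0.946% in ES-2 and 0.938% in C643. About 13.3% of all Huh-7 reads were miR-122-5p alone, and the other 44 summed to 13.1%. The 45 lower miRNAs made up 1.98% of Huh-7 reads, 50.9% of ES-2 reads and 46.5% of C643 reads. The 122 tested miRNAs that met neither rule held 70.7% in Huh-7 against 47.8% in ES-2 and 52.1% in C643. Among them, miR-21-5p, the miRNA the study was about, ranked first in each line, at 33.3% in Huh-7 against 28.2% in ES-2 and 28.6% in C643.

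**Figure D1:**
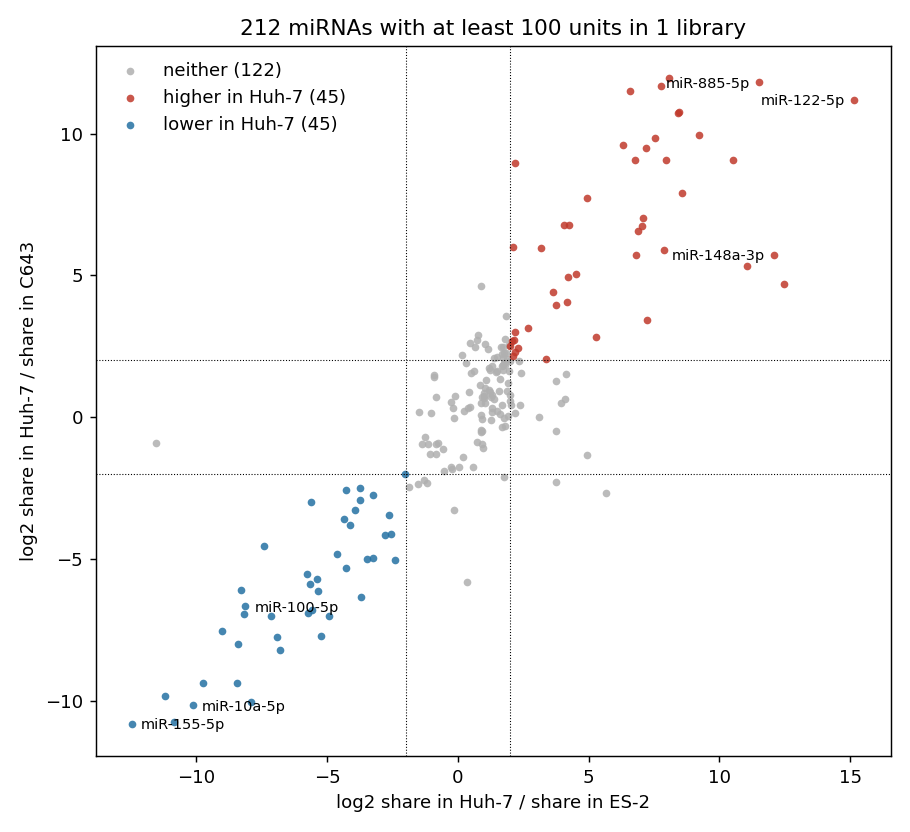
Each point is 1 of the tested miRNAs, placed by its log2 ratio of shares Huh-7 to ES-2 (x axis) and Huh-7 to C643 (y axis), with dotted lines at 4-fold. The higher miRNAs (45) fill the upper right corner and the lower ones the lower left. A library at 0 reads was set to 3 reads, and 3 lower miRNAs with at most 3 reads in both Huh-7 and C643 are not drawn.

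The liver-linked miRNAs were higher in Huh-7 nearly without exception. Of the 11 arms listed for miR-122, miR-885, miR-192, miR-194, miR-215 and miR-148a, 10 were higher in Huh-7. The other, miR-192-3p, had 11 Huh-7 reads and 0 in both other lines, under the minimum. Over all 212 tested miRNAs, 21.2% were called higher. The counts of listed arms below stand beside this same share. As a group the 11 arms held 18.6% of Huh-7 reads, 0.0147% of ES-2 reads and 0.0778% of C643 reads. Among the higher arms were the 6 listed as hepatocyte markers (miR-122-5p, miR-122-3p, miR-885-5p, miR-192-5p, miR-194-5p and miR-148a-3p). That list was chosen with results of these data known, so this is a description and no separate check of the label.

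miR-122-5p, the second most abundant miRNA of Huh-7, was read 288469 times there (13.3%, 95% interval 13.23 to 13.32%) against 6 in ES-2 and 468 in C643. Its share was 36788-fold higher than in ES-2 (95% interval 16902 to 100246) and 2321-fold higher than in C643 (2119 to 2546). The other arm, miR-122-3p, was read 988 times in Huh-7 against 0 in ES-2 and 7 in C643. In Huh-7, 292 reads of the 5p arm were counted for each read of the 3p arm (274 to 311). MIR122 lies at chr18:58451074-58451158 on the plus strand (GRCh38), over an exon of the non-coding host gene MIR122HG.

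miR-885-5p had 11365 reads in Huh-7 against 0 in ES-2 and 12 in C643, and miR-885-3p 1050, 0 and 1. By share miR-885-5p was at least 2899-fold higher than in ES-2 and 3566-fold higher than in C643 (2040 to 6903). Its hairpin, at chr3:10394489-10394562 on the minus strand, lies in an intron of ATP2B2, which encodes a plasma membrane calcium pump. This hairpin was nearly unread in the other lines, with 13 reads over both arms in C643 and 0 in ES-2.

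miR-148a-3p had 62362 reads in Huh-7 (2.87%) against 11 in ES-2 and 4447 in C643. The difference was far larger against ES-2 (4338-fold, 2424 to 8690) than against C643 (52.8-fold, 51.2 to 54.4). miR-148a-5p had 591, 0 and 209 reads. Both relatives with the same seed were not members: miR-148b-3p held 0.298% in Huh-7 against 0.0973% in ES-2 and 0.117% in C643, and miR-152-3p was lower in Huh-7, at 0.0163%, than in ES-2 (0.0345%) and C643 (0.0397%). The summed share of the seed was 3.18% in Huh-7 against 0.133% in ES-2 and 0.211% in C643.

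miR-192 and miR-194 are made from a shared locus on chromosome 11, and miR-215, a near copy of miR-192, lies beside a second miR-194 hairpin on chromosome 1. miR-192-5p had 19125 reads in Huh-7 against 109 in ES-2 and 560 in C643. miR-194-5p was close to it in each line, with 18351, 105 and 654 reads. Against the nearer line these were 129-fold and 106-fold higher in Huh-7. miR-194-3p had 569 reads in Huh-7 against 14 in ES-2 and 10 in C643. miR-215-5p had 1349 Huh-7 reads and 0 in both others, at least 344-fold higher than in ES-2. MIR192 (chr11:64891137-64891246) and MIR194-2 (chr11:64891355-64891439) overlap exons of the non-coding MIR194-2HG, and MIR215 (chr1:220117853-220117962) and MIR194-1 (chr1:220118157-220118241) form the other pair. Of the reads of miR-194-5p in Huh-7, 82.9% were counted at the chromosome 11 locus and 17.1% at the chromosome 1 locus. The same mature sequence comes from both loci, so these shares show where the reads were placed.

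**Figure D2:**
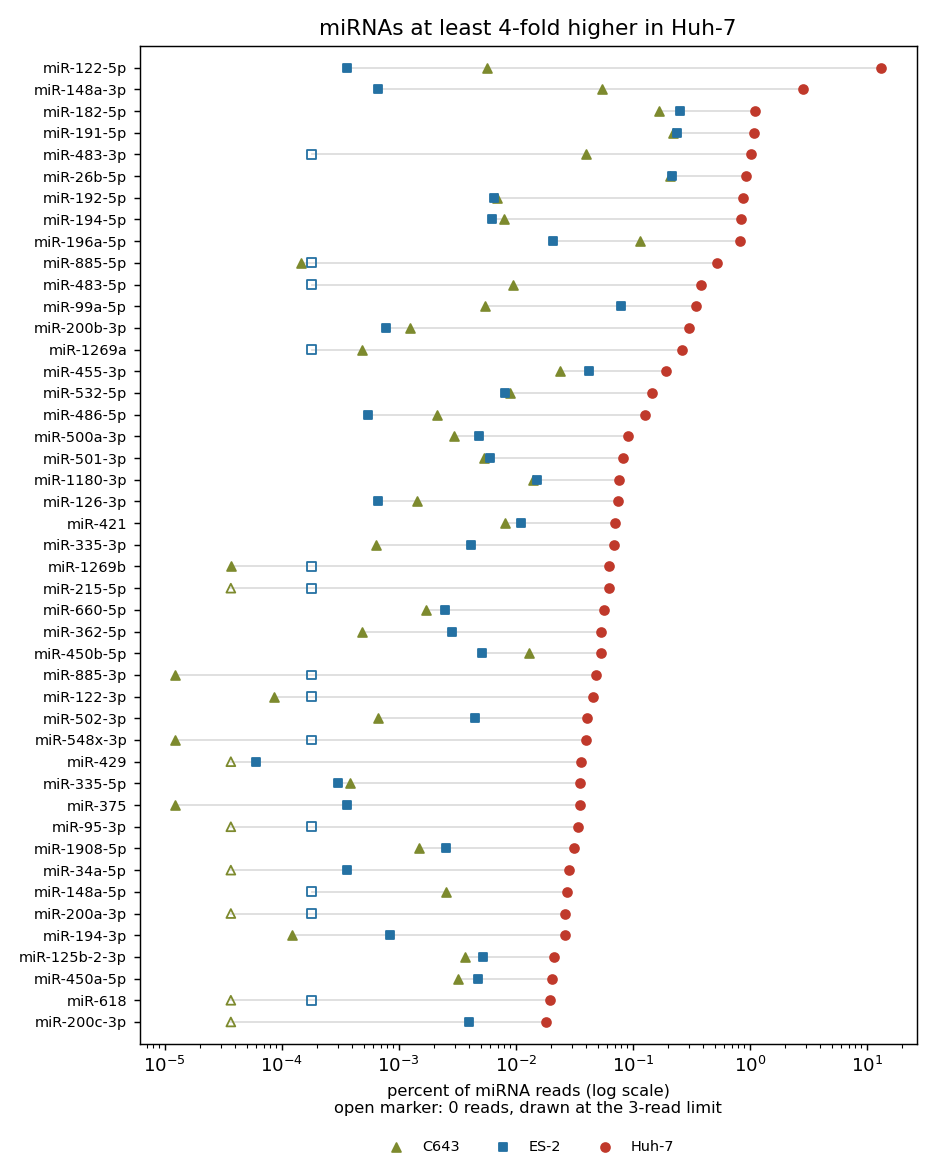
Share of miRNA reads (percent, log axis) of the 45 miRNAs higher in Huh-7, in order of the Huh-7 share, with 1 marker for each line. Open markers stand for 0 reads and are drawn at the limit that 3 reads set. miR-122-5p stands far to the right at 13.3%, and in 13 of the 45 the ES-2 marker is open.

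In all, 13 of the 45 higher miRNAs had no read in ES-2, 7 had none in C643, and 4 had none in either (miR-215-5p, miR-95-3p, miR-200a-3p and miR-618). At the depth of these libraries, 0 reads still allow a share of up to 0.00018% in ES-2 and 3.67e-05% in C643.

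Arms of miR-483, which lies within the gene of the fetal growth factor IGF2, followed. miR-483-3p had 22452 reads in Huh-7 (1.03%) against 0 in ES-2 and 3264 in C643, and miR-483-5p 8291, 0 and 774. Against C643 the folds were 25.9 (25.0 to 26.9) and 40.3 (37.5 to 43.5). In Huh-7, 0.369 reads of the 5p arm were counted per read of the 3p arm (0.360 to 0.379), and in C643 0.237 (0.219 to 0.257). The neighbouring imprinted non-coding gene H19 carries miR-675, and its arms had 1 and 0 reads in Huh-7 and none in the other lines. So 2 of the 4 arms listed for this locus were higher, beside 21.2% of the 212 tested, and the other 2 were nearly unread.

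The miR-200 family, known for keeping epithelial cells epithelial by repressing ZEB1 and ZEB2, was present in Huh-7 and nearly lacking in the other lines. miR-200b-3p had 6558 reads in Huh-7 against 13 in ES-2 and 102 in C643. miR-429 had 780, 1 and 0 reads and miR-200a-3p 570, 0 and 0. MIR200B (chr1:1167104-1167198) and MIR429 (chr1:1169005-1169087) lie next to each other on the plus strand. The second cluster, on chromosome 12, gave less: miR-200c-3p had 394 reads in Huh-7 against 66 in ES-2 and 0 in C643, and miR-141-3p 4, 7 and 0. miR-200c-3p was 4.57-fold higher than in ES-2 (3.51 to 6.02), which is under 4-fold by the other scalings. The 3 members with the seed of miR-200b-3p summed to 0.356% of Huh-7 reads, 0.00481% of ES-2 reads and 0.00125% of C643 reads. Of the 11 arms of the epithelial list 4 were higher, and its other well-known members stayed near 0 in Huh-7, with 0 reads for miR-203a-3p and miR-205-5p. Those 4 were the only arms of the list with 100 units, and 21.2% of all 212 tested miRNAs were higher.

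A cluster on chromosome X, within introns of the chloride transporter gene CLCN5, was higher as a block. miR-532-5p had 3190 reads in Huh-7 against 135 in ES-2 and 728 in C643. miR-500a-3p had 1958, 81 and 241 reads, miR-501-3p 1799, 101 and 440, and miR-660-5p 1233, 41 and 140. For miR-362-5p the counts were 1157, 47 and 40, and for miR-502-3p 885, 74 and 54. These 6 of the 8 arms listed for the cluster were 9.15 to 23.0-fold above the nearer line. Those 6 were the only arms of the list with 100 units, beside 21.2% of all 212 tested that were higher. The 8 arms summed to 0.478% of Huh-7 reads (0.469 to 0.487%), 0.0292% of ES-2 and 0.0201% of C643. The first and last of the hairpins with a position printed here were MIR532 (chrX:50003148-50003238) and MIR502 (chrX:50014598-50014683).

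miR-1269a and miR-1269b, which differ at 1 of 22 positions and lie on chromosomes 4 and 17, were both higher. miR-1269a had 5747 reads in Huh-7 against 0 in ES-2 and 40 in C643, and miR-1269b 1364, 0 and 3. The likeness of their sequences means that reads could have been divided between them in counting. Their sum of 7111 reads in Huh-7 against 0 in ES-2 and 43 in C643 does not depend on that.

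Several more had large contrasts at lower levels. miR-375, known from the endocrine pancreas and gut, had 762 reads in Huh-7 against 6 in ES-2 and 1 in C643. miR-34a-5p, a direct target of the tumor suppressor p53, had 619, 6 and 0. miR-126-3p, from an intron of the endothelial gene EGFL7, had 1619, 11 and 117. miR-548x-3p had 866, 0 and 1, miR-95-3p 732, 0 and 0 and miR-618 426, 0 and 0. Arms of miR-335, which lies in an intron of the imprinted gene MEST, had 1501 (3p) and 770 (5p) reads in Huh-7 against 69 and 5 in ES-2 and 52 and 31 in C643. miR-1908-5p had 687 reads in Huh-7 against 42 in ES-2 and 121 in C643.

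miR-486-5p, best known from red blood cells, had 2766 reads in Huh-7 against 9 in ES-2 and 174 in C643. The defining erythroid miRNA, miR-451a, had 0 reads in Huh-7 and C643 and 1 in ES-2, and miR-144-3p 0 in all 3. Of the 7 arms in the blood cell list, 1 was thus higher, the only one with 100 units, beside 21.2% of the 212 tested. The other arm of the same hairpin, miR-486-3p, had 236 Huh-7 reads and 0 in both others.

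A further set passed 4-fold by share but not by the other scalings. miR-182-5p held 1.12% in Huh-7 against 0.251% in ES-2 and 0.168% in C643. miR-191-5p held 1.09%, 0.237% and 0.220%, and miR-26b-5p 0.930%, 0.217% and 0.209%. These 3 were 4.44, 4.58 and 4.29-fold above ES-2, the nearer line, and by the deposited units their log2 differences from it were 1.24, 1.28 and 1.18, under 4-fold. The related miR-26a-5p, with the same seed, held 2.95%, 1.29% and 0.893% and was not a member. miR-191-5p is often taken as a reference miRNA for normalization. Of the 6 miRNAs listed as common references, all with 100 units, 1 was higher, beside 21.2% of the 212 tested. Their sum was 7.34% in Huh-7 against 2.17% in ES-2 and 2.09% in C643. miR-455-3p (0.191%, 0.0420% and 0.0238%), miR-1180-3p (0.0760%, 0.0153% and 0.0141%) and miR-421 (0.0709%, 0.0110% and 0.00809%), less abundant, fell under 4-fold by those scalings too. So did miR-450b-5p (0.0530%, 0.00511% and 0.0129%) and miR-450a-5p (0.0202%, 0.00475% and 0.00318%), which share a cluster on chromosome X.

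The boundary of the rule ran through closely spaced values. Just inside it among the higher miRNAs were miR-125b-2-3p at 4.02-fold over the nearer line, miR-450b-5p at 4.11 and miR-450a-5p at 4.25, and just outside were miR-146b-5p at 3.93, miR-542-3p at 3.90 and miR-331-3p at 3.85. Among the lower miRNAs, miR-625-3p (4.01-fold), miR-218-5p (5.28) and miR-29a-3p (5.65) were just inside and miR-27a-3p (3.70), miR-23a-3p (2.86) and miR-505-3p (2.46) just outside.

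The let-7 family dominated the lower miRNAs. Its 9 members, miR-98-5p included, summed to 1.39% of Huh-7 reads against 20.0% in ES-2 and 30.1% in C643. Of the 9, 7 were lower, beside 21.2% of all 212 tested miRNAs. let-7a-5p had 10607 reads in Huh-7 (0.488%, 0.479 to 0.497%) against 198620 in ES-2 (11.9%) and 1131336 in C643 (13.8%), and was 24.5-fold lower than in ES-2 and 28.3-fold lower than in C643. let-7f-5p had 7899, 35377 and 511416 reads.

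The others lower in Huh-7 reached far deeper. let-7i-5p had 31 reads in Huh-7 against 44483 in ES-2 and 197856 in C643, so that its share was 1875-fold lower than in ES-2 (1321 to 2760) and 1695-fold lower than in C643 (1194 to 2495). let-7b-5p had 70 reads in Huh-7 against 13023 in ES-2 and 277411 in C643. let-7d-5p had 36, 3320 and 29379 reads, let-7g-5p 806, 25519 and 158710, and miR-98-5p 69, 2502 and 28867. Among the 7 lower members of the family the fold against the nearer line therefore ran from 5.85 for let-7f-5p to 1695 for let-7i-5p.

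The exceptions were let-7c-5p, which held 0.0813% in Huh-7 against 0.168% in ES-2 and 0.0727% in C643, and let-7e-5p, at 0.406%, 0.470% and 1.45%. let-7a-5p differs from each of let-7c-5p, let-7e-5p and let-7f-5p at 1 position, and whether reads were exchanged among them in counting was not tested. let-7a-5p comes from 3 loci, and in each line about as many of its reads were counted at each, from 32.8 to 33.8% in Huh-7. The minor arms were low as well. let-7a-3p had 36 reads in Huh-7 against 261 in ES-2 and 4239 in C643, let-7b-3p 0, 87 and 2388, and let-7d-3p 9, 764 and 10090. let-7a-2-3p, let-7i-3p and let-7f-1-3p, none of them a member, had 0 reads in Huh-7, against 68, 44 and 12 in ES-2 and 266, 533 and 211 in C643.

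**Figure D3:**
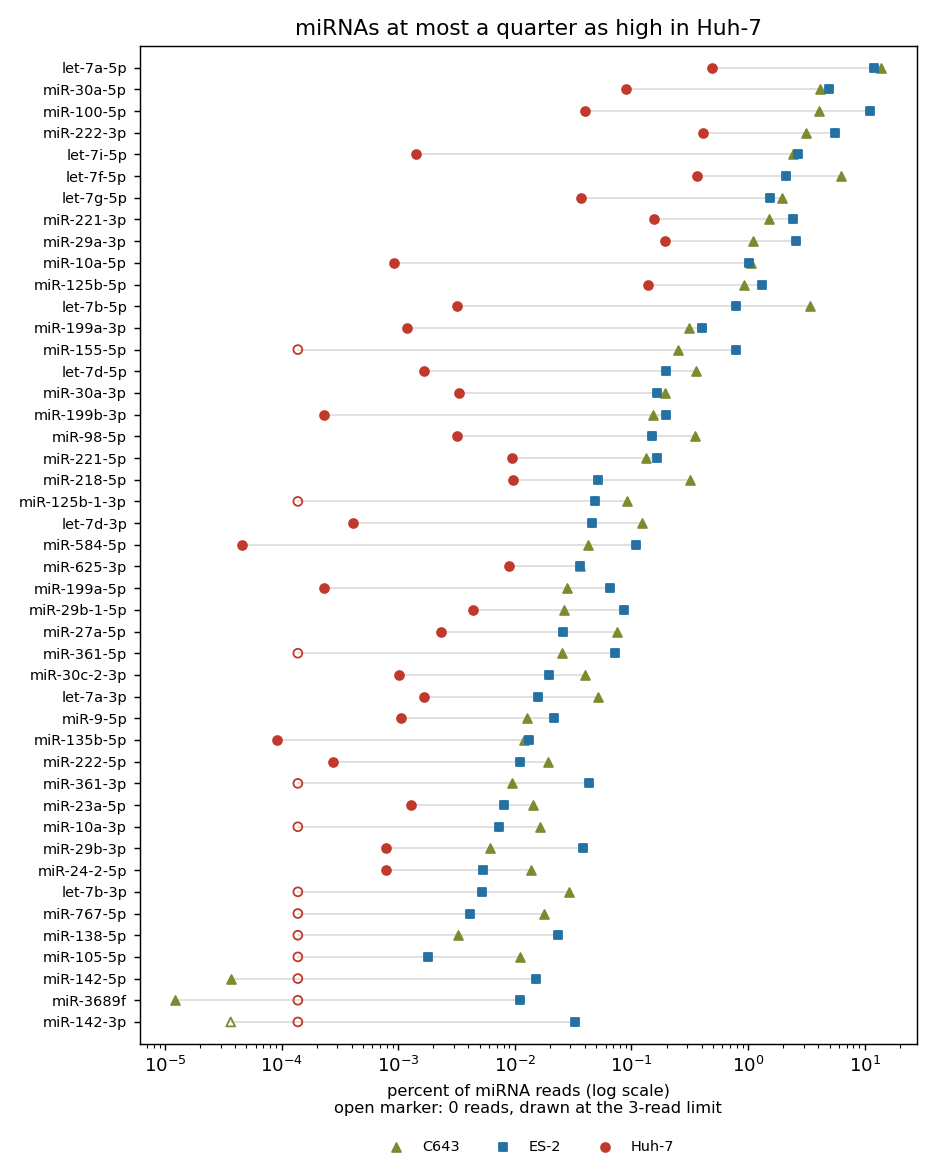
Share of miRNA reads (percent, log axis) of the 45 miRNAs lower in Huh-7, ordered by the smaller of their shares in ES-2 and C643, with 1 marker for each line. Open markers stand for 0 reads and are drawn at the limit that 3 reads set. 12 of the 45 have an open Huh-7 marker.

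Members from the paralogous clusters on chromosomes 11 and 21 differed in direction by share. Each holds a miR-99/100 hairpin, a let-7 hairpin and a miR-125b hairpin. On chromosome 11, within MIR100HG, lie MIR100 (chr11:122152229-122152308), MIRLET7A2 (chr11:122146522-122146593) and MIR125B1 (chr11:122099757-122099844). miR-100-5p had 868 reads in Huh-7 (0.0399%) against 185512 in ES-2 (11.2%) and 333032 in C643 (4.07%), a share 279-fold and 102-fold lower. miR-125b-1-3p, the arm that only this copy of miR-125b makes, had 0 reads in Huh-7 against 803 in ES-2 and 7465 in C643. miR-100-3p had 0, 132 and 368 reads.

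On chromosome 21, within MIR99AHG, miR-99a-5p had 7508 reads in Huh-7 (0.345%) against 1329 in ES-2 (0.0799%) and 447 in C643 (0.00546%). It was 4.32-fold above ES-2 (4.08 to 4.59) and 63.2-fold above C643 (57.5 to 69.7). miR-125b-2-3p, the arm particular by sequence to the chromosome 21 copy, had 457, 87 and 300 reads. After scaling by the median ratio, the log2 difference from ES-2 was 1.09 for miR-99a-5p and 0.99 for miR-125b-2-3p, under 4-fold. let-7c-5p, from the same cluster, met neither rule, and after the same scaling its log2 differences were -2.06 from ES-2 and -0.47 from C643. let-7c-3p had 0 reads in Huh-7 against 17 in ES-2 and 31 in C643.

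Mature miR-125b-5p is identical from both clusters. It had 3014 reads in Huh-7 against 22020 in ES-2 and 75107 in C643, 9.55-fold and 6.62-fold lower in Huh-7. Its reads were counted in nearly equal parts at both loci in each line (51.3% at chromosome 11 in Huh-7, where the 3p arm of that locus had 0 reads), so the counts of the 5p arm by locus do not tell the loci apart. miR-99a-5p and miR-100-5p differ at 1 of 22 positions, and an exchange of reads between them was not tested. In ES-2 and C643 miR-99a-5p was far below miR-100-5p, and in Huh-7 it was above it. With miR-99b-5p, which has the same seed, they summed to 1.20% in Huh-7 against 11.4% in ES-2 and 4.86% in C643.

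miR-221 and miR-222, made from 1 locus on chromosome X and known to repress the cell cycle inhibitor p27, were lower in all 4 arms. Lower calls made up 21.2% of the 212 tested. miR-222-3p had 8973 reads in Huh-7 (0.413%) against 92194 in ES-2 (5.54%) and 255408 in C643 (3.12%). miR-221-3p had 3420, 40466 and 123052 reads, miR-221-5p 206, 2749 and 10912, and miR-222-5p 6, 186 and 1567. The folds of the 3p arms ran from 7.56 (miR-222-3p against C643) to 15.5 (miR-221-3p against ES-2). MIR221 (chrX:45746157-45746266) and MIR222 (chrX:45747015-45747124) lie on the minus strand in MIR222HG.

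The miR-30 family split by member. miR-30a-5p had 1957 reads in Huh-7 (0.0900%) against 81306 in ES-2 (4.89%) and 340848 in C643 (4.17%), and was 54.3-fold and 46.3-fold lower. Its other arm, miR-30a-3p, had 72, 2739 and 15957 reads, and miR-30c-2-3p, from a hairpin of the same stretch of chromosome 6, 22, 325 and 3292. miR-30e-5p, which differs from miR-30a-5p at 1 position, held 0.710% in Huh-7 against 0.353% in ES-2 and 0.391% in C643, but after scaling by the median ratio its log2 differences were -0.01 and 0.23. The 5 members of the family on the list summed to 3.45%, 7.11% and 6.85%. By the rule 1 of the 5 was lower, beside 21.2% of the 212 tested.

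miR-29, which represses collagens and DNA methyltransferases, had 3 lower arms, of which miR-29b-3p and miR-29b-1-5p share the MIR29B1 hairpin. Of the 3 arms listed for the family, 2 had 100 units and these 2 were lower, beside 21.2% of the 212 tested. miR-29a-3p had 4197 reads in Huh-7 against 42639 in ES-2 and 89263 in C643. miR-29b-3p had 17, 635 and 506, and miR-29b-1-5p 96, 1421 and 2163. The reads of miR-29b-3p were counted at chromosome 7 (7, 342 and 244) and at chromosome 1 (10, 293 and 262), which its sequence does not tell apart. MIR29A (chr7:130876747-130876810) and MIR29B1 (chr7:130877459-130877539) are close neighbours, while miR-29c-3p, also from chromosome 1, was under 100 units everywhere with 28, 44 and 99 reads.

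HOX clusters, which set position along the body axis, carry their own miRNAs, and those differed in direction. miR-10a-5p had 20 reads in Huh-7 against 17083 in ES-2 and 86237 in C643, 1116-fold and 1145-fold lower. miR-10a-3p had 0, 121 and 1337. miR-196a-5p was higher, with 17775 reads in Huh-7 (0.818%) against 348 in ES-2 and 9341 in C643, 39.1-fold and 7.16-fold. MIR10A (chr17:48579838-48579947, in HOXB3 and HOXB4) and MIR196A1 (chr17:48632490-48632559, in an intron of HOXB7) belong to the same HOXB cluster, and MIR196A2 lies on chromosome 12 in HOXC6. The reads of miR-196a-5p were counted at 55.6% on chromosome 12 and 44.4% on chromosome 17 in Huh-7. miR-10b-5p held 0.437% in Huh-7 against 0.253% in ES-2 and 0.0583% in C643 and met neither rule, nor did miR-196b-5p (0.0663%, 0.0185% and 0.00554%) or miR-615-3p (0.0755%, 0.0275% and 0.0250%).

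miR-155-5p, a miRNA of activated immune cells and many tumors, had 0 reads in Huh-7 against 12992 in ES-2 and 20326 in C643. Its share was at least 5660-fold lower than in ES-2 and at least 1800-fold lower than in C643. miR-199a-3p, linked to mesenchymal cells, had 26 reads in Huh-7 against 6718 in ES-2 and 25247 in C643, and miR-199a-5p 5, 1096 and 2303. miR-199b-3p had 5, 3297 and 12533, but its mature sequence is identical to that of miR-199a-3p, so the reads of this pair cannot be told apart and are best taken as a sum, 31 in Huh-7 against 10015 in ES-2 and 37780 in C643. Other mesenchymal markers were uneven among the lines: miR-143-3p had 866, 13 and 20687 reads, miR-145-5p 45, 0 and 155 and miR-214-3p 5, 0 and 1050. miR-146a-5p, also linked to immune cells, met neither rule, with 15352, 661 and 20120 reads.

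Of the remaining lower miRNAs, miR-584-5p had 1 read in Huh-7 against 1815 in ES-2 and 3464 in C643, and miR-135b-5p 2, 218 and 977. Both arms of miR-361, from an intron of CHM on chromosome X, had 0 reads in Huh-7, against 1196 and 720 (5p and 3p) in ES-2 and 2090 and 774 in C643. miR-138-5p had 0, 391 and 264 reads, and miR-9-5p, known from the nervous system, 23, 359 and 1034. Of the 6 arms listed for brain, 2 had 100 units and 1 of these was lower, beside 21.2% of the 212 tested. By summed share the list was nonetheless larger in Huh-7 (0.530%) than in the other lines (ES-2 0.191%, C643 0.171%). miR-128-3p, which met neither rule, went the other way from miR-9-5p. It held 0.528%, with ES-2 at 0.165% and C643 at 0.151%. miR-767-5p and miR-105-5p, from hairpins in introns of GABRA3, a gene on chromosome X, had 0 reads in Huh-7 against 69 and 30 in ES-2 and 1461 and 911 in C643. miR-218-5p, from introns of SLIT2 and SLIT3, had 211, 853 and 25896.

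From the miR-23a/27a/24-2 cluster of chromosome 19 the minor arms were lower. miR-27a-5p had 51 reads in Huh-7 against 434 in ES-2 and 6180 in C643, miR-23a-5p 28, 134 and 1162, and miR-24-2-5p 17, 89 and 1127. The abundant arms met neither rule by share: miR-23a-3p held 0.366%, 1.05% and 1.89%, miR-27a-3p 0.0643%, 0.238% and 0.351%, and miR-24-3p 0.462%, 0.405% and 1.23%. Unlike miR-24-2-5p, miR-24-3p carries no locus number in its name, so its reads cannot be assigned to this cluster alone. From the paralogous cluster on chromosome 9, miR-23b-3p had 13247, 592 and 31759 reads and miR-27b-3p 25921, 1282 and 69029. After scaling by the median ratio miR-23a-3p and miR-27a-3p were under 0.25 of both lines too.

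Last, 3 of the 45 met the lower rule although C643 had at most 3 reads as well: miR-142-3p (0 reads in Huh-7 against 542 in ES-2 and 0 in C643), miR-142-5p (0, 255 and 3) and miR-3689f (0, 183 and 1). For these only the difference from ES-2 is measured, and 42 lower miRNAs were left without them. miR-142 is known from blood cells. In all, 12 of the 45 had 0 reads in Huh-7, which allows a share there of up to 0.000138%.

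Summed over the miRNAs of a seed that reached 100 units, some of these differences were as wide and others narrowed. For let-7, miR-221 with miR-222, miR-29 and miR-199-3p the sum was lower in Huh-7. For miR-26 and miR-125 the sums lay closer together, at 3.88%, 1.504% and 1.10% for miR-26 and at 1.22%, 1.70% and 1.84% for miR-125 in Huh-7, ES-2 and C643. In the latter sum miR-125a-5p, no member, held 1.08% in Huh-7 against 0.381% in ES-2 and 0.922% in C643.

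**Figure D4:**
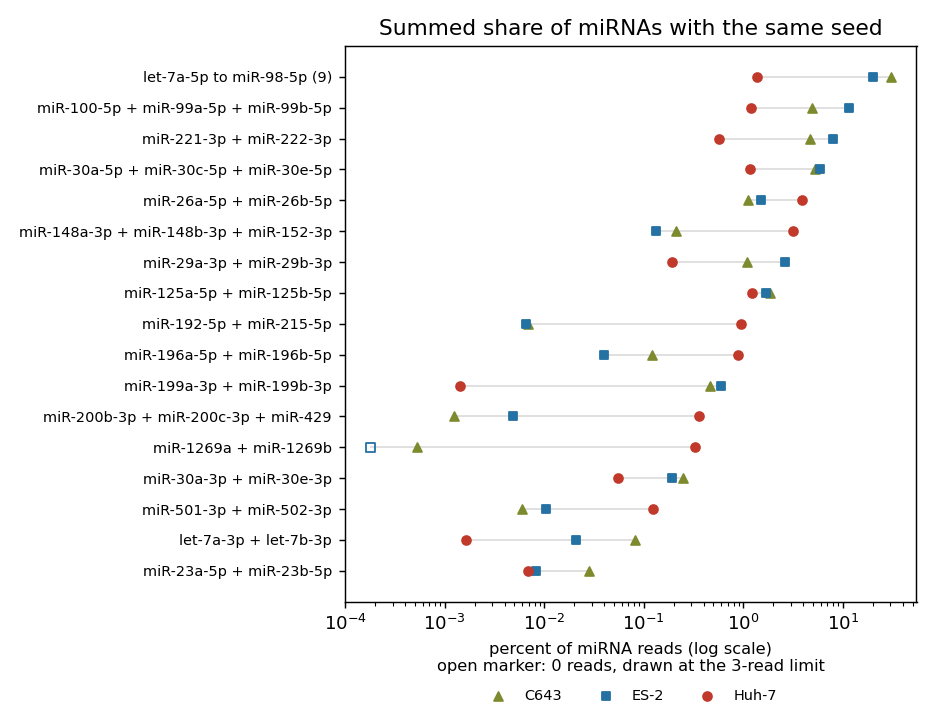
Summed share of miRNA reads (percent, log axis) of the miRNAs at 100 units with a matched sequence that have the same seed. Sets are drawn for each seed with a member and at least 2 such miRNAs, which name the set. miR-30b-5p and miR-30d-5p had no matched sequence, so the miR-30 set leaves them out. Markers are the 3 lines. let-7 lies at 1.39% in Huh-7 against 20.0% and 30.1%, and miR-192-5p with miR-215-5p at 0.942% against 0.00655% and 0.00684%.

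The other arms of the members' hairpins were compared where they were no members themselves. Most were under 100 units, but miR-23a-3p, miR-27a-3p, miR-24-3p and miR-30c-5p reached it and met neither rule. Of 21 such arms of higher miRNAs with at least 10 reads in 1 library, 19 had a share in Huh-7 above both other lines, 1 below both and 1 between. Across all 622 non-members with 10 reads, 55.5% were above both. Of 19 such arms of lower miRNAs, 0 were above both, 14 were below both and 5 were neither, against 13.2% of the 622 below both. The 5 include let-7g-3p and miR-155-3p, which were tied at 0 reads in Huh-7 and ES-2. The minimum of 10 reads fixed part of these counts. Arms with reads in Huh-7 alone, such as miR-486-3p with 236, could only lie above both. Arms with 0 reads in Huh-7, such as let-7a-2-3p, could not. The 622 include these arms, so the counts are a description only. The exceptions among the higher were miR-182-3p, with 1 read in Huh-7 against 13 in ES-2 and 41 in C643, and miR-1180-5p, with 26, 18 and 231. Arms of a hairpin come from the same library and transcript and are not separate evidence of a line's difference.

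**Figure D5:**
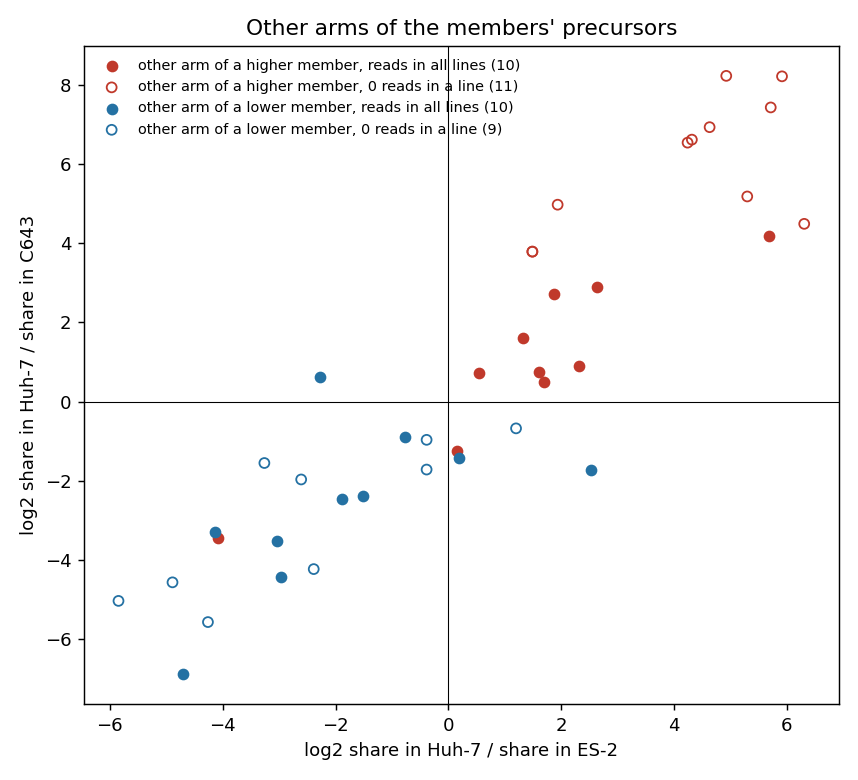
Each point is the other arm of a member's hairpin, itself no member, by its log2 ratio of shares Huh-7 to ES-2 (x axis) and Huh-7 to C643 (y axis). Open circles have 0 reads in at least 1 line, set to 3 reads. For let-7g-3p and miR-155-3p, at 0 reads in both Huh-7 and ES-2, the x value reflects library depth alone. Arms of higher miRNAs (21) lie mostly at the upper right and those of lower miRNAs (19) at the lower left.

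In sequence the sets resembled the rest. The median GC content was 45.5% in the higher (39 with a sequence) and in the lower miRNAs (44), and 47.8% in all tested ones (191). A 5′ U was found in 53.8%, 52.3% and 54.5%. A locus on chromosome X was held by 9 of the 45 higher and 10 of the 45 lower miRNAs, and by 32 of the 212 tested.

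The listed groups below held no member by the rule, and several of them had no arm with 100 units. In the miR-17 to miR-92a cluster, an amplified oncogenic cluster in some cancers, 6 of 7 arms had 100 units and 0 met either rule. Over all 212 tested miRNAs, 21.2% were higher and 21.2% lower. The sum of the cluster was 7.87% in Huh-7 against 5.63% in ES-2 and 2.62% in C643. miR-31-5p, with 2 reads in Huh-7, 14 in C643 and 4574 in ES-2, set ES-2 apart. miR-224-5p and miR-452-5p, from introns of GABRE and often raised in liver cancer, met neither rule: miR-224-5p had 4129, 1684 and 29973 reads and miR-452-5p 798, 197 and 2771. miRNAs that mark muscle or pluripotent cells were near 0, with 23 reads for miR-1-3p and 0 for the 9 listed arms of the pluripotency clusters in Huh-7. The 30 listed arms from the DLK1-DIO3 cluster summed to 0.00313% of Huh-7 reads (68 reads), 0.000541% of ES-2 (9 reads) and 0.0111% of C643 (910 reads). The 11 from the C19MC cluster had 0 reads in Huh-7 and ES-2 and 5 in C643.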

How the data were processed

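Small RNA libraries of 3 parental cell lines (1 library each) had been prepared with a NEXTflex kit and sequenced on an Illumina instrument. The submitters' processing notes name cutadapt 1.14, Bowtie2 2.3.3, SAMtools 1.5, featureCounts 1.5.3, edgeR 3.18.1 and hg38. How reads matching several loci were counted, the miRNA annotation version and the use of the kit's random bases are not given in the sources used here. ES-2 and Huh-7 share a table and C643 has its own. In these 2 tables the authors deposited a signal (reads scaled by a library factor, named CPM) for 2813 loci. Its columns summed to 612015 (Huh-7), 1154552 (ES-2) and 959302 (C643), not to 1000000, although the plan had assumed CPM. Every value was a whole multiple of the smallest in its column (100% whole within 0.01 read), so whole reads were recovered by division. The tables hold no column of comparisons.

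Loci were summed by mature miRNA (167 had several) and divided by the column total. A share needs no library factor between tables, but it shifts with the rest of its library, so other scalings were also run. The 100-unit minimum equals 355 reads of the Huh-7 library, 144 of ES-2 and 853 of C643. Shares carry Wilson 95% intervals. Folds are ratios of shares with exact conditional binomial intervals. A fold against 0 reads was computed against 3 reads per library and is a lower bound, one against 1 to 3 reads is given with its interval, where the plan had a bound for both, and none is given where both are at 3 reads or fewer. Intervals and limits cover counting error only, since PCR copies are not independent molecules.

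The miRNAs named in full were the 10 with the highest share and the 10 with the largest fold against the nearer line each way (for lower ones, the highest of the smaller share of the other lines), the members of preset lists, and the 3 nearest to the threshold on each side. Others were named after their values were seen. Members and the 32 miRNA lists were chosen with earlier results of these data known. Without replicates, no p-value is given. Positions are from GENCODE version 29 (GRCh38), sequences from RefSeq. Scripts ran in Python 3.11.15 with pandas 2.3.3 and scipy 1.17.1 and were tested on simulated data.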

Additional observations from a re-analysis of the deposited data

How the results depend on the processing

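No paired analysis was possible because the lines have no replicates. The count of higher miRNAs was 79 at 2-fold, 102 with a minimum of 10 units, 15 with 1000 units and 382 with no minimum, and the count of lower ones was 69, 22 and 258 with these 3 minimums. The summed share in Huh-7 was 39.6% for the higher and 2.97% for the lower miRNAs when miR-21-5p was left out of the total, 28.1% and 1.54% with the mean over loci in place of the sum, and 16.2% and 1.21% with 1000000 in place of the total. Under the other alternatives, the counts stayed within 1.5 times, from 33 (8-fold) to 65 (against C643 alone) higher and from 35 (8-fold) to 53 (against C643 alone) lower. A minimum of 0.01% of reads in 1 library, chosen after seeing the data, gave 52 and 45, and asking for more than 3 reads in both other lines, also chosen then, gave 42 lower. With the counting interval past 4-fold, 41 and 41 were left. A planned read test between libraries passed 198 of all 212 miRNAs against both lines. It compares libraries, on the reads that chose the members, and bears on no difference between lines. Of 36 named members, miR-182-5p, miR-191-5p and miR-26b-5p fell under 4-fold by the deposited units, by the median ratio and with the members left out of the total. Direction is fixed by the choice of members and is no sign of stability. Counting depth limits what is said of the 12 miRNAs at 0 reads in Huh-7 and the 13 at 0 in ES-2, the shallowest library. No interval covers the spread between cultures.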
